A study of Pomacea canaliculata with 12 samples.

Results

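A group of 150 genes was expressed in the retina and in both kinds of tentacle of the apple snail Pomacea canaliculata, and lower in the eye stalk than in all of them. They were chosen by their normalised read counts out of 21131 genes in the count table, in CPM, the reads of a gene scaled to the size and composition of its library. A member had at least 2 CPM in each of the 9 retina, cephalic tentacle and oral tentacle libraries, and each of those 9 values lay above the highest eye stalk value. Its retina, cephalic and oral means were each at least 2 times the eye stalk mean, and its retina mean was less than 4-fold from the mean of the tentacle libraries. These values chose the genes, so the low eye stalk level is the definition of the group and not a finding, and comparisons with eye stalk are given below as a description only.

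The study sequenced poly(A) RNA of extracted retina, amputated cephalic tentacle, amputated oral tentacle and amputated eye stalk, with 3 libraries of each. No strain, treatment, time or age is given in the labels, and nothing there says whether a library holds 1 animal or several, or whether the eye stalk samples still carried the eye. The p-values below therefore measure the spread between libraries, which may be technical. Library totals were between 10804847 and 45673871 counts. Retina was sequenced deepest, with totals of 40794864 or more where no other tissue passed 21561988, so depth and tissue cannot be told apart for retina.

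The apple snail has a camera-type eye, in which a lens throws an image on a cup-shaped retina of photoreceptor, pigment and supporting cells. The eye sits on a short stalk of skin, muscle, nerve and connective tissue at the base of the cephalic tentacle, a long appendage used for touch and smell. The oral tentacles are shorter sensory appendages beside the mouth. All 150 members carry only a LOC identifier, and the reference gene table of assembly ASM307304v1 gives 0 of them another symbol, so no function is assigned to any gene here and the tissues could not be checked against defining markers. In bulk tissue, fewer cells of a type and less RNA per cell cannot be told apart.

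The pattern was uncommon and mostly shallow. Of the 21131 genes, 10952 had at least 2 CPM in all 9 libraries, 872 of those were also above every eye stalk library, and 154 of those reached 2 times the eye stalk mean in each tissue. The limit on the retina to tentacle ratio then removed 4 genes. Applied to another tissue as the low one, the same level, separation and 2-fold criteria found 2151 genes low in retina alone, 33 low in oral tentacle alone and 12 low in cephalic tentacle alone, beside the 154 low in eye stalk alone. In the mirror pattern, 1333 genes were high in retina alone, 386 in eye stalk alone, 116 in oral tentacle alone and 96 in cephalic tentacle alone. Eye stalk was thus singled out by low genes more often than either tentacle type and far less often than retina.

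**Figure D1:**
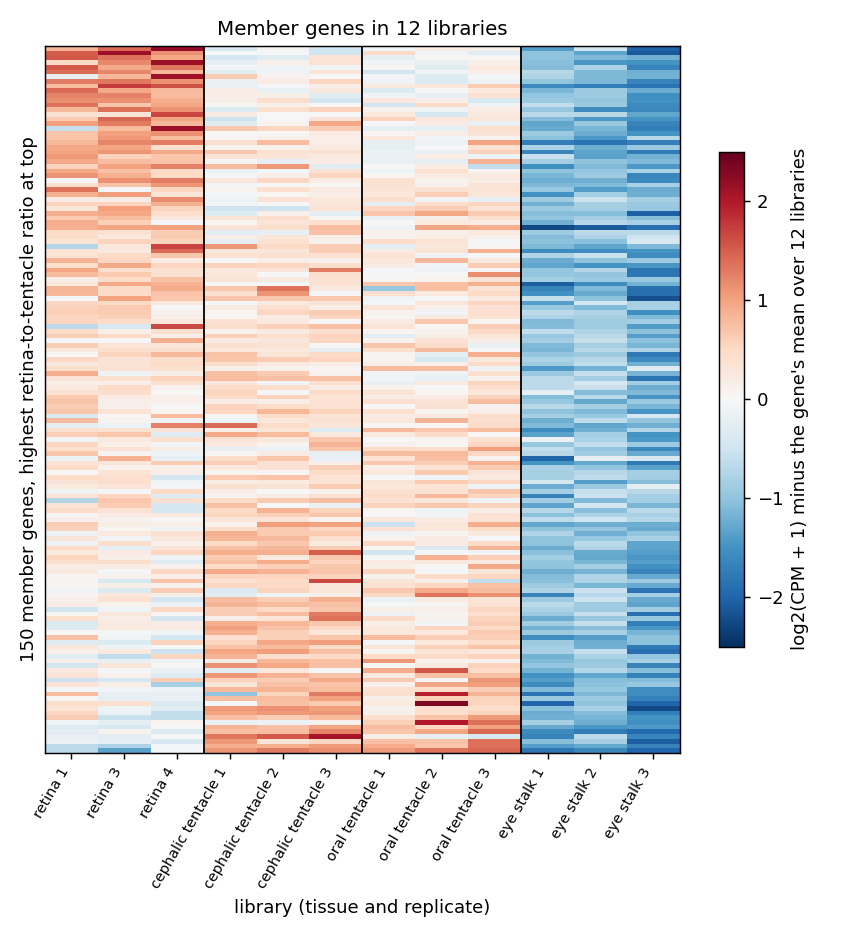
Each row is one of the 150 members and each column one library, and colour gives log2(CPM + 1) minus the mean of that gene over the 12 libraries. The 3 eye stalk columns on the right are the low ones, as the choice of genes requires, while the balance of retina and tentacles shifts from the top rows to the bottom rows.

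The mean of the 3 high tissue means was 2.13 to 13.2 times the eye stalk mean, with a median of 3.16. It was at least 3 times in 86 members, at least 5 times in 17 and at least 10 times in 1. Separation between libraries was narrower: the lowest of the 9 retina and tentacle values was 1.56 times the highest eye stalk value in the median, and at least 2 times in 21 members. The ratio differed little with level, with medians of 3.27 in the 39 members under 10 CPM and 2.94 in the 10 members of at least 100 CPM. Eye stalk reads were still present in every member. Its mean level there ran from 0.446 to 147 CPM with a median of 5.49 CPM, 24 members were under 2 CPM, and 0 members had a count of 0 in any eye stalk library. The group was therefore reduced in eye stalk and not missing from it.

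Members together took a similar small part of each high tissue. They held 0.470 ± 0.034% of the counts in retina, 0.558 ± 0.030% in cephalic tentacles, 0.528 ± 0.047% in oral tentacles and 0.182 ± 0.025% in eye stalk (SD, n = 3 each). The summed CPM were 6023 ± 302 in retina, 5081 ± 414 in cephalic tentacles, 4725 ± 417 in oral tentacles and 1740 ± 253 in eye stalk.

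The fitted changes gave the same picture in each tissue. Median log2 fold changes over eye stalk were 1.59 in retina, 1.65 in cephalic tentacles and 1.48 in oral tentacles, against -0.04, -0.01 and -0.02 over all 16811 genes tested. All 150 members were among the genes tested. By edgeR's quasi-likelihood test with Benjamini-Hochberg adjustment over all genes, at an adjusted p under 0.05, 148 members were called in favour of retina over eye stalk, where 25.6% of all genes were. For cephalic tentacle 141 members were called against 10.3% of all genes, and for oral tentacle 140 against 12%. In all 3 comparisons together 134 members were called, against 2.52% of all genes. The choice of genes used these contrasts, and the 3 comparisons share the eye stalk libraries, so nothing is read from these counts.

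**Figure D2:**
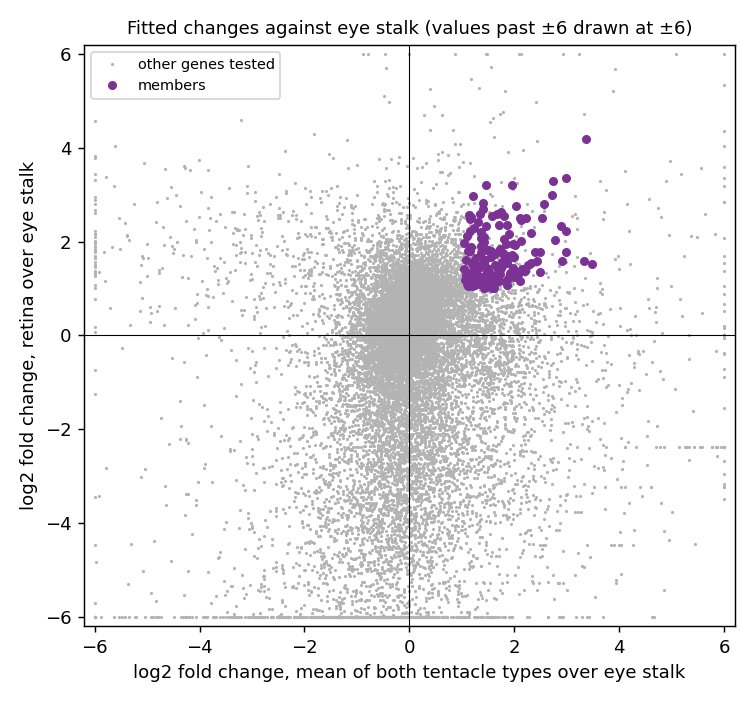
Log2 fold changes over eye stalk are drawn for all 16811 genes tested, with the mean of the tentacle types on the horizontal axis and retina on the vertical axis. The 150 members lie past a log2 change of 1 on both axes, as their choice requires, among other genes that missed a criterion.

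The largest ratios were found at low and moderate CPM. LOC112560568 had 8.64, 11.5 and 12.2 CPM in retina, 6.04, 8.14 and 5.08 in cephalic tentacles, 3.6, 3.88 and 9.86 in oral tentacles, and 0.618, 0.49 and 0.639 in eye stalk. The groups were far apart, at 13.2 times the eye stalk mean, but the eye stalk values rest on 8, 6 and 8 counts. LOC112573945 was more abundant and nearly as separate. It had 34.5, 37 and 37.4 CPM in retina, 22.9, 24.9 and 31.6 in cephalic tentacles, 16.9, 36.5 and 35 in oral tentacles, and 3.01, 3.43 and 4.15 in eye stalk. Its log2 fold change over eye stalk was 3.36 ± 0.30 in retina, 2.90 ± 0.29 in cephalic tentacles and 3.06 ± 0.29 in oral tentacles (SE of the edgeR fit), a change of similar size in each.

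Of the 10 largest ratios, 3 belonged to genes with a retina level well under the tentacle level. LOC112557320 had 6.4, 3.7 and 10.6 CPM in retina, 24.4, 28.3 and 25.6 in cephalic tentacles, 23.9, 29.1 and 31.2 in oral tentacles, and 2.39, 2.86 and 2 in eye stalk. Its tentacle mean was 3.92 times its retina mean, near the 4-fold limit, and it was not a member under 5 of 16 other settings, RLE scaling among them. All of its tentacle libraries stood above retina, and its retina libraries above eye stalk. LOC112571341 followed the same order, with 2.27, 2.07 and 4.05 CPM in retina, 8.69, 8.66 and 10 in cephalic tentacles, 8.91, 7.35 and 12.6 in oral tentacles, and 1, 1.14 and 0.639 in eye stalk. LOC112557335 had 15, 19.3 and 13.9 CPM in retina, 31.3, 31.8 and 44 in cephalic tentacles, 30, 36.7 and 50.8 in oral tentacles, and 5.41, 4.73 and 3.99 in eye stalk. In each of these genes the levels formed 3 steps without overlap, with eye stalk lowest, retina next and the tentacles highest.

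The other 5 of the 10 were lower or less even. LOC112563885 was level across the high tissues, with means of 11.1 ± 1.48 CPM in retina, 10.2 ± 4.57 in cephalic tentacles and 8.85 ± 0.907 in oral tentacles, against 1.59 ± 0.543 in eye stalk (SD, n = 3 each). LOC112574557 averaged 3.75 ± 2.07 CPM in retina, 5.35 ± 0.583 in cephalic tentacles, 5.8 ± 0.513 in oral tentacles and 0.745 ± 0.337 in eye stalk. LOC112559298 averaged 4.47 ± 2.67, 2.87 ± 0.429 and 3.19 ± 0.102 CPM in these 3 tissues, and 0.446 ± 0.229 CPM in eye stalk from 9, 3 and 5 counts. Counting error alone is large at such levels. LOC112565698 ranged from 2.32 to 9.71 CPM in oral tentacles and from 0.718 to 1.96 CPM in eye stalk, so its groups nearly touched. LOC112556664 had 2.52, 9.25 and 16.1 CPM in cephalic tentacles and 0.927, 2.2 and 1.36 CPM in eye stalk, again with a narrow gap.

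**Figure D3:**
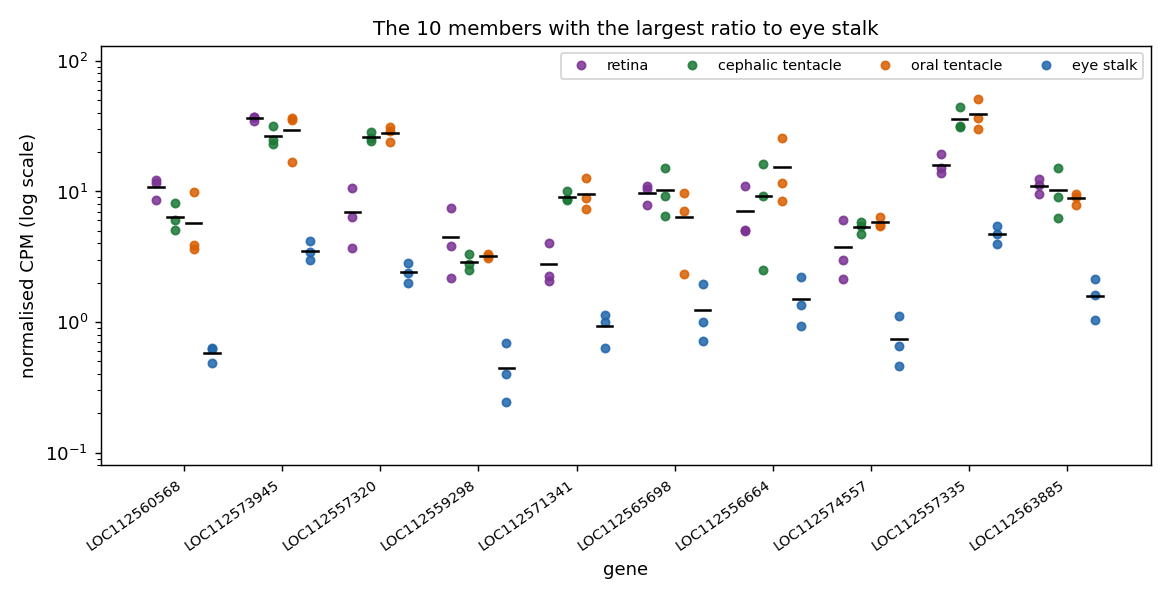
Normalised CPM on a log scale are drawn for the 10 members with the largest ratio of the high tissue means to the eye stalk mean, with a point for each library and a bar at each tissue mean (n = 3). The eye stalk points lie lowest in each gene, and in LOC112557320, LOC112571341 and LOC112557335 the retina points lie between eye stalk and tentacles.

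The 6 members with the highest CPM, which is not divided by gene length, had ratios to eye stalk of 2.32 to 3.53. LOC112560108 had 683, 832 and 594 CPM in retina, 273, 359 and 658 in cephalic tentacles, 325, 387 and 301 in oral tentacles, and 137, 174 and 106 in eye stalk. Retina was highest on average, although cephalic replicate 3 lay within the retina range. LOC112574021 was nearly flat outside the eye stalk, with 395, 416 and 299 CPM in retina, 283, 317 and 397 in cephalic tentacles, 289, 320 and 360 in oral tentacles, and 161, 153 and 128 in eye stalk. Its 3 high tissues overlapped fully, and the mean over them was 2.32 times the eye stalk mean. LOC112565825 had 522, 524 and 378 CPM in retina, 249, 244 and 185 in cephalic tentacles, 208, 190 and 287 in oral tentacles, and 112, 118 and 75.4 in eye stalk, so retina stood above both tentacle types and they above eye stalk. LOC112561230, LOC112557139 and LOC112559318 averaged 78.8 ± 29.7, 72.7 ± 9.25 and 54.4 ± 13 CPM in eye stalk (SD, n = 3 each). The mean over their high tissues was 2.47, 2.64 and 2.84 times that.

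With the scaling used here, retina and tentacles were balanced over the group. The fitted log2 fold change of retina over tentacles was above 0 in 73 members and below 0 in 77, with a median of -0.03 against -0.12 over all genes tested. The sign of the members' median depended on the scaling, and on the libraries used, with values from -0.09 to 0.06 over the alternatives and 0.06 with scaling factors taken over the genes tested. No fit without scaling factors was among these alternatives. Before scaling, the members' share of counts was lower in retina than in cephalic and oral tentacles (0.470% against 0.558% and 0.528%), while their summed CPM was higher there. The retina mean was at least 2 times the tentacle mean in 13 members, 1 to 2 times in 60, below it by less than 2-fold in 70, and below it by at least 2-fold in 7. The edgeR test called 28 members higher in retina, against 29.6% of all genes, and 15 higher in the tentacles, against 34%. DESeq2 called 27 members higher in retina, against 29.1% of all genes, and 26 higher in the tentacles, against 37.6%. All retina libraries lay above all tentacle libraries in 23 members, where 25.3% of all genes did, and below them in 11, where 30.1% did. The 4-fold limit bars the largest differences of this kind, but it removed only 1 gene higher in retina and 3 lower, beside the 150 kept. The retina and tentacle values were used in choosing the genes, so these counts are a description, and what sets the shares was not tested.

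Members were also grouped by that balance, which fixes the order of the ratios below. In the 13 members highest in retina, the median ratio to eye stalk was 5.94 in retina, 2.4 in cephalic tentacles and 2.33 in oral tentacles. In the 7 members lowest in retina it was 3.01 in retina, 7.58 in cephalic tentacles and 8.47 in oral tentacles. LOC112555760 belonged to the first kind, with 69.4, 108 and 53.4 CPM in retina, 23.5, 23.2 and 16.6 in cephalic tentacles, 33.7, 22.5 and 19.7 in oral tentacles, and 11.4, 8.98 and 4.79 in eye stalk. LOC112569775 was ordered alike, with means of 42.7 ± 8.62 CPM in retina, 15.5 ± 4.98 in cephalic tentacles, 16 ± 1.64 in oral tentacles and 7.2 ± 0.587 in eye stalk (SD, n = 3 each). LOC112559342 had the largest ratio of retina to tentacles, 3.35, but its retina libraries held 26.7, 39.7 and 69.9 CPM. It was not a member under 6 of 16 other settings, RLE scaling and factors taken over the genes tested among them. It was not called over eye stalk in cephalic tentacle (edgeR adjusted p = 0.14). In oral tentacle it was called (edgeR adjusted p = 0.045), but not in 10 of 18 alternatives. LOC112577397, one of the 7, had 3.09, 2.94 and 2.41 CPM in retina, 8.57, 4.66 and 5.53 in cephalic tentacles, 6.49, 6.42 and 10.7 in oral tentacles, and 1.16, 1.55 and 0.0798 in eye stalk, where replicate 3 held 1 count. Its retina level was not called different from the tentacles (edgeR adjusted p = 0.071) or from eye stalk (edgeR adjusted p = 0.07).

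The tentacle types were compared with each other because the choice of genes did not use their difference directly. It did use their values, since both types had to pass the level, separation and 2-fold criteria. The difference was therefore free only within those limits. Between cephalic and oral tentacle 1 of 150 members was called, 0.667%. The edgeR test called 0.178% of all genes higher in cephalic tentacles and 0.178% higher in oral tentacles, so nothing is read from this count. The median size of the log2 fold change, whatever its sign, was 0.32 in the members and 0.25 over all genes tested. The called member was LOC112565611, with 63.6, 74.3 and 107 CPM in cephalic tentacles and 28.1, 20.9 and 19 in oral tentacles, beside 21.7, 20.3 and 25.1 in retina and 7.18, 15.3 and 7.42 in eye stalk. Every cephalic library stood above every oral one, and the oral libraries overlapped those of retina. The log2 fold change of cephalic over oral tentacle was 1.85 ± 0.31 (SE, edgeR adjusted p = 0.039), higher in 3 of 3 cephalic libraries. Same-numbered tentacle libraries deviated together over all genes, and only weakly over the members. With the replicate number as a block this gene was not called (edgeR adjusted p = 0.14). It was called in 8 of 20 alternatives, with adjusted p from 0.014 to 0.20 by edgeR and 4.6e-06 by DESeq2, and it was lost without any 1 tentacle library and without retina replicate 1 or 3.

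Other members leaned one way or the other without passing the test. LOC112573682 had 11, 11.2 and 17.5 CPM in cephalic tentacles and 3.76, 5.32 and 5.12 in oral tentacles, a log2 fold change of 1.48 ± 0.30 (edgeR adjusted p = 0.089). In the other direction, LOC112572539 had 3.56, 3.7 and 4.58 CPM in cephalic tentacles and 6.8, 19.8 and 12.4 in oral tentacles (log2 fold change -1.72 ± 0.44, edgeR adjusted p = 0.19). LOC112553866 had 13.5, 15.5 and 19.2 CPM in cephalic tentacles and 24.5, 44.9 and 38.5 in oral tentacles (-1.16 ± 0.30, edgeR adjusted p = 0.20). These 3 genes were chosen after their values were seen, as those with the next smallest p. None of them overlapped between the tentacle types.

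Small differences in favour of cephalic tentacle were common. All cephalic libraries lay above all oral ones in 35 members, 23.3%, against 11.7% of all genes tested and 13.5% of genes with at least 2 CPM in every retina and tentacle library. The reverse held in 15 members, 10%, against 9.43% and 10.6%. The median log2 fold change of cephalic over oral tentacle was 0.11 in the members and 0.03 over all genes tested, and 94 members were above 0 and 56 below. The members' median was 0.06 without cephalic replicate 3, 0.07 without oral replicate 1 and 0.20 without oral replicate 3. With scaling factors taken over the genes tested it was 0.07, and that of all genes was -0.01. The cephalic mean was within 1.5-fold of the oral mean in 116 members, over 1.5 times it in 23 and under it by more than that in 11. An unadjusted p under 0.05 was reached by 24 members, 16%, against 9.21% of all genes.

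**Figure D4:**
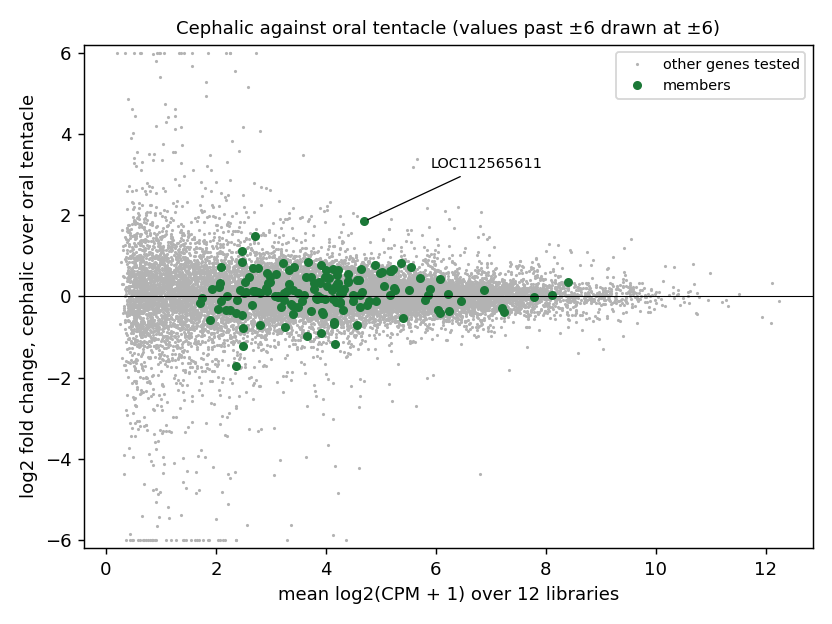
The log2 fold change of cephalic over oral tentacle is drawn against the mean log2(CPM + 1) over the 12 libraries for all 16811 genes tested, with members in green. Most members lie close to 0 with a median of 0.11, and LOC112565611 at 1.85 is the member called.

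The eye stalk libraries held different levels of the members. Replicate 2 was the highest of the eye stalk libraries in 78 members, 52%, against 30.3% of all genes tested, and replicate 3 was the lowest in 90 members, 60%, against 37.9%. The median member level was 5.79, 6.41 and 4.59 CPM in eye stalk replicates 1, 2 and 3, and the summed level was 1771, 1977 and 1473 CPM. The highest eye stalk library of a gene gives the level that its retina and tentacle libraries must exceed. Among the members this was most often replicate 2. Without replicate 2 the same rule found 271 genes, 147 of the 150 among them. Its omission also changed the eye stalk means and the scaling factors, and what raised the number was not tested. The eye stalk values were used in choosing the genes, so the order of the eye stalk libraries is a description. What sets these libraries apart was not tested. In oral tentacle, replicate 3 was the highest in 84 members, 56%, against 37.7% of all genes, and replicate 1 the lowest in 71, 47.3%, against 33.8%.

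**Figure D5:**
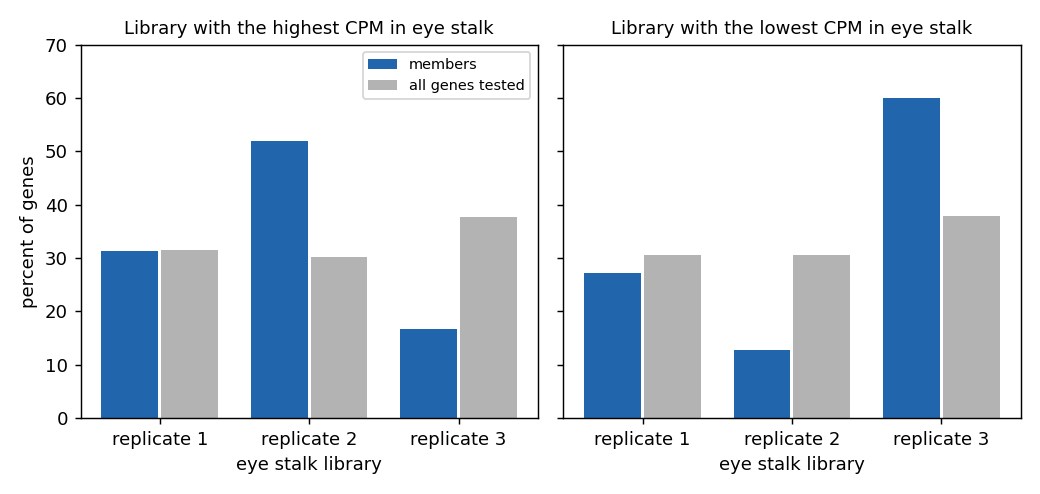
Bars give the percent of genes for which each eye stalk library held the highest (left) or the lowest (right) normalised CPM of the 3 eye stalk libraries, for the 150 members in blue and for all 16811 genes tested in grey. Replicate 2 was highest in 52% of members and replicate 3 lowest in 60%.

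In the gene order of the reference table, 4 members formed 2 adjacent pairs, and 16 members formed 10 pairs within 5 places of each other. The number of pairs in other sets of genes of this size was not computed, so nothing is read from these counts. One pair was LOC112577451 and LOC112553459. LOC112577451 had 14.8, 14.2 and 37.9 CPM in retina, 13, 11.3 and 11.2 in cephalic tentacles, 13.6, 7.94 and 13.4 in oral tentacles, and 6.64, 6.53 and 3.91 in eye stalk. LOC112553459 had 64.3, 42.6 and 54.9 CPM in retina, 20.5, 19.8 and 20.2 in cephalic tentacles, 21.8, 17.3 and 25.8 in oral tentacles, and 9.58, 12.2 and 6.07 in eye stalk. Both were highest in retina and lowest in eye stalk replicate 3. LOC112577451 was not called over eye stalk in cephalic tentacle (edgeR adjusted p = 0.095) or oral tentacle (edgeR adjusted p = 0.09). It was not a member under 5 of 16 other settings, and LOC112553459 was not under 1.

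The other pair differed in its tentacle levels. LOC112559809 averaged 28.5 ± 6.78 CPM in retina, 18.5 ± 3.28 in cephalic tentacles, 29.6 ± 2.11 in oral tentacles and 5 ± 1.77 in eye stalk, and its neighbour LOC112559810 averaged 14.4 ± 2.26, 8.16 ± 0.412, 8.08 ± 1.04 and 3.15 ± 1.01 CPM in the same order (SD, n = 3 each). LOC112556664 and LOC112556665, 7 places apart, both peaked in oral replicate 2, where they held 25.8 and 75 CPM against 8.44 and 11.6, and 16.9 and 20.7, in oral replicates 1 and 3. These pairs were chosen after their values were seen. Whether any of these genes share reads through similar sequence was not tested. Of the 210 tested genes directly beside a member that were not members themselves, 70 (33.3%) were called in favour of retina over eye stalk, against 25.6% of all genes. For cephalic tentacle 32 (15.2%) were called, against 10.3%, and for oral tentacle 34 (16.2%), against 12%. These comparisons share the eye stalk libraries that were used to choose the members, and the neighbours were not matched to all genes by level. What sets these shares was not tested.

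The edge of the group was not a natural break. The members just inside the 2-fold limit were LOC112571117, LOC112571420 and LOC112566595. Their smallest tissue ratios to eye stalk were 2.003, 2.003 and 2.007. LOC112571117 had 68.7, 81.4 and 63.2 CPM in retina, 80.9, 79.4 and 66.2 in cephalic tentacles, 63.2, 59 and 77.8 in oral tentacles, and 36.5, 39.2 and 24.2 in eye stalk. Just outside were LOC112575932, LOC112554987 and LOC112573769, at 1.999, 1.998 and 1.996. LOC112575932 had 16.9, 16.3 and 12.2 CPM in retina, 22.6, 23.1 and 22.8 in cephalic tentacles, 16.3, 15.1 and 20.1 in oral tentacles, and 8.73, 7.83 and 6.15 in eye stalk. In all, 716 genes met every criterion but the 2-fold one. Of the 150 members, 61 stayed members under all of 16 other settings, which were other scalings, equal depth and the omission of each library in turn.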

How the data were processed

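Poly(A) RNA was extracted with Trizol, per the labels' protocols, from 4 tissues with 3 libraries each. The values the authors deposited are raw counts of reads in whole numbers, in a single table of 21131 genes by 12 libraries. STAR was the aligner per the submitters' processing notes. Its version, the counting tool, strand setting, genome build and annotation were not given in the sources used here. No coordinates or lengths are reported, and overlapping genes or near-identical copies could not be separated. The table of assembly ASM307304v1, which held all 21131 identifiers, was used only for names and gene order.

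Counts were scaled with TMM factors over all genes (edgeR 4.0.16, R 4.3.3), and CPM and tests use these factors. Retina had factors of 0.762 to 0.799, the other tissues of 1.03 to 1.13. Genes were filtered with filterByExpr (minimum count of 10), which left 16811, and fitted with edgeR's quasi-likelihood test (robust), all 12 libraries in 1 fit with tissue as the only term. Benjamini-Hochberg adjustment ran over every gene tested, and calls were made at an adjusted p under 0.05. SEs were derived from the F statistic. DESeq2 1.42.0 was an alternative test. The fit was tested on simulated data for the 3 comparisons with eye stalk.

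The members, gene lists and rules were chosen with earlier results of these data known. The gene lists and cell type markers needed product descriptions, which no gene had, so they were not applied. Named genes are the 10 members with the largest ratio, the 6 with the highest CPM, those called between the tentacle types (at most 10), 3 at each end of the retina to tentacle ratio, and 3 on each side of the 2-fold limit. Replicate numbers come from the titles. Deviations from the tissue means of same-numbered cephalic and oral libraries correlated across genes (r = 0.40, 0.30 and 0.51 for numbers 1, 2 and 3), so the numbers are taken as possible pairs. The main fit has no block, and the fit with the replicate number as a block is an alternative given beside the comparison of the tentacle types. Across the members alone, the cephalic and oral deviations correlated weakly (r = 0.12, 0.24 and 0.07). For cephalic tentacle and eye stalk r was -0.33, 0.03 and -0.38 across genes, and for oral tentacle and eye stalk -0.23, 0.002 and -0.36. Correlations near this size thus also arose with the opposite sign. Libraries of a tissue differed by more than sampling noise, with a chi-square of at least 34.0 per degree of freedom.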

Additional observations from a re-analysis of the deposited data

How the results depend on the processing

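The number of members was 31 with a 3-fold limit in place of the 2-fold one, and it ran from 133 to 271 when 1 library was left out. It stayed within 1.5 times of 150 with RLE scaling (150 genes, 142 of them shared), no scaling factors (104, 87 shared), equal depth (132, 120 shared), a minimum of 1 CPM (160) or 5 CPM (114), and TMM factors over the genes tested (171, 144 shared), an alternative chosen after seeing the data. Members called against eye stalk ran from 135 to 149 for retina, 117 to 148 for cephalic tentacle and 116 to 147 for oral tentacle over all alternatives. Those called between retina and tentacles ran from 36 to 53, with 28 higher and 15 lower in retina in the fit as stated and 27 and 26 with DESeq2. Members called between cephalic and oral tentacle numbered 6 with DESeq2, and edgeR called 0 with TMM factors over the genes tested (18 members with an unadjusted p under 0.05), 0 in the 6 tentacle libraries alone (40), and 0 to 2 when 1 library was left out (13 to 30). With the replicate block edgeR called 0 between the tentacle types (25 with an unadjusted p under 0.05), and 0 in the 6 tentacle libraries with the replicate block (39). Over all genes, the calls between the tentacle types numbered 30 higher and 30 lower in cephalic tentacle, and 197 and 178 with DESeq2, 17 and 21 with the replicate block, 19 and 15 in the 6 tentacle libraries alone, 9 and 14 in those with the block, and 13 to 48 and 9 to 42 when 1 library was left out. The cause was not tested. Retina replicate 4 has a number of its own and drops out of the block fit. The block moved no other count of member calls by over 1.5 times. Over 80 fitted changes of named genes and 1444 alternatives to them, 46 lost and 6 gained a call and 0 changed sign. Low eye stalk counts limit the ratios of the members under 2 CPM there.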

Other observations

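The 4 genes that met every criterion but the 4-fold limit between retina and tentacles were named after their values were seen. LOC112556989 was the 1 higher in retina, with 11.2, 25.9 and 144 CPM in retina, 13, 6.74 and 3.13 in cephalic tentacles, 6.44, 2.7 and 3.65 in oral tentacles, and 1.47, 1.96 and 1.44 in eye stalk. The 3 lower in retina were LOC112554347, LOC112560791 and LOC112575351. LOC112554347 had 3.56, 2.7 and 6.46 CPM in retina, 18, 18.4 and 17.3 in cephalic tentacles, 18.6, 13.8 and 26.4 in oral tentacles, and 2.47, 1.96 and 1.92 in eye stalk. Its cephalic libraries were close together and its levels formed 3 steps, with eye stalk lowest and the tentacles highest. LOC112560791 had 5.52, 4.66 and 18.3 CPM in retina, 19.9, 5.7 and 48 in cephalic tentacles, 45.8, 108 and 395 in oral tentacles, and 2.01, 4.24 and 0.239 in eye stalk. LOC112575351 had 15.3, 9.49 and 15.1 CPM in retina, 6.87, 11.1 and 49.1 in cephalic tentacles, 47.5, 179.9 and 25.6 in oral tentacles, and 1.24, 5.88 and 4.79 in eye stalk, and in both of these genes the tentacle libraries lay far apart.

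A few members varied widely between libraries of a tissue. The highest retina library was at least 3 times the lowest in 7 members (4.67%), against 5.83% of genes with at least 2 CPM in every retina and tentacle library. In eye stalk this held for 11 members (7.33%), against 4.18%. The comparison genes were not matched to the members by eye stalk level, and counting error is larger at low levels. The largest eye stalk ratio among the members, 19.4 in LOC112577397, includes a library with 1 count. What sets these shares was not tested. LOC112564549, chosen after its values were seen, had 20.8, 55.1 and 142 CPM in retina, against 12.6, 13.6 and 8.78 in eye stalk. LOC112559414, the most variable member in retina, had 2.33, 5.74 and 16.9 CPM there, against 1.54, 1.22 and 1.6 in eye stalk. Both were highest in retina replicate 4.

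LOC112559795 was the member not called against eye stalk in any of the 3 comparisons. It had 12, 25.1 and 11.2 CPM in retina, 18.7, 22.1 and 11.4 in cephalic tentacles, 17.5, 23.2 and 14.3 in oral tentacles, and 2.55, 11 and 9.82 in eye stalk, where replicate 1 stood apart from the other two.

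In the gene order, LOC112577450 and LOC112553151, which are not members, came directly before the pair LOC112577451 and LOC112553459. LOC112553151 had 5.05, 9.89 and 28.7 CPM in retina, 6.41, 5.63 and 6.59 in cephalic tentacles, 8.13, 3.55 and 8.15 in oral tentacles, and 3.55, 3.67 and 2.55 in eye stalk, so that oral replicate 2 lay below the highest eye stalk library and the cephalic mean was 1.91 times the eye stalk mean.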
